A study of Mus musculus with 24 samples.

Results

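Oxidative phosphorylation is carried out by 5 protein complexes of the inner mitochondrial membrane whose subunits come from 2 genomes, and the mRNAs of both sets were followed here in mouse T cells before and after an allogeneic transplant. The genes were taken by name. A protein-coding gene was a nuclear member when its symbol began with Nduf, Uqcr, Cox4i, Cox5, Cox6, Cox7, Cox8 or Atp5 (Ndufaf genes, which assemble complex I, were left out), or when it was Sdha, Sdhb, Sdhc, Sdhd or Cyc1, and the 13 protein-coding genes of mitochondrial DNA were the mitochondrial members. Of 100 genes that met the rule, 95 had a CPM (counts scaled to a common library total) above 1 in at least 3 libraries, and they stood among 19086 genes of 35855 that passed the same filter. The 95 were 82 nuclear and 13 mitochondrial genes. The nuclear ones were 37 of complex I, 4 of complex II, 9 of complex III, 15 of complex IV and 17 of complex V, and the mitochondrial ones were 7 of complex I, 1 of complex III, 3 of complex IV and 2 of complex V. The 5 that did not pass were Cox8b, Cox8c, Cox7b2, Ndufa4l2 and a second gene record named Atp5o.

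The study sequenced CD8+ and CD4+ T cells sorted from spleen of C57BL/6 donors that were wild type (WT) or carried Cat-Tg, a heterozygous transgene for human β-catenin without its N-terminus. "Pre-tx" libraries came from donor cells before transfer, and "post-tx" libraries from donor cells taken back on day 7 from lethally irradiated BALB/c recipients, which also received WT bone marrow depleted of T cells. There were 8 groups of 3 libraries, 1 for each combination of cell type (CD8 or CD4), genotype (Cat-Tg or WT) and time. All mice were age and sex matched, CD4 and CD8 cells were sorted from the same mice, and post-tx donor cells were picked by the donor MHC molecule H-2Kb. The transgene sits in the p1017 vector, whose promoter the methods do not name, and its carriers descend from several founders made in FVB mice and bred to C57BL/6. Nothing in these libraries separates an effect of the transgene within mature T cells from one during their development, and a transcript of the transgene itself was not analysed here.

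Complexes I to IV form the respiratory chain. Complex I (NADH dehydrogenase) and complex II (succinate dehydrogenase) pass electrons to ubiquinone, complex III passes them to cytochrome c, and complex IV (cytochrome c oxidase) passes them to oxygen, while complexes I, III and IV pump protons that complex V (ATP synthase) lets back to make ATP. Nuclear subunits are made in the cytosol and imported, whereas the mitochondrial genes are transcribed as long polycistronic RNAs from each strand and cut into single mRNAs, so the mitochondrial mRNAs share their promoters and the nuclear ones do not. Complex II has no mitochondrial subunit. T cells that leave rest and divide are known to enlarge their mitochondrial mass and to respire more. mRNA levels do not measure respiration.

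The nuclear members are spread over the chromosomes and have no promoter in common, and 4 short stretches are shown because they come from members on which later results turn and hold the letters best known in promoters of this gene class. Capitals mark GCGCATG or its reverse complement (core of the NRF1 site) and CCGGAAG or its reverse complement (core of an ETS site, bound by GABP among others). All are RefSeq sequence of build GRCm38.p6, written 5′ to 3′ along the gene.
Sdhb (chr4:140961207-140961236, plus strand): agcccagtgggCATGCGCcctacgggccgc
Cox6a1 (chr5:115349096-115349135, minus strand): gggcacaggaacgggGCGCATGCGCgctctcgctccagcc
Atp5l (chr9:44920933-44920992, minus strand): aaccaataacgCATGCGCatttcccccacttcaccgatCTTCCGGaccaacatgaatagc
Uqcr11 (chr10:80406866-80406902, minus strand): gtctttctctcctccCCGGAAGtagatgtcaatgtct
The Sdhb stretch lies 64 to 35 bases before the RefSeq start, in bases that GENCODE places in the first exon, and the Cox6a1 stretch lies 177 to 138 bases before it and holds overlapping matches on both strands. The Atp5l stretch lies 250 to 191 bases before its start and holds 1 match of each kind, and the Uqcr11 stretch lies 81 to 45 bases before its start. RefSeq windows of 300 bases (250 before and 50 after the start) were matched for 65 of 82 nuclear members. On both strands, GCGCATG was in 13 of 65 (20%) against 4.41% of the windows of all 27025 genes, and CCGGAAG was in 16 of 65 (24.6%) against 9.93%. AAGATGG, the core of the YY1 site, was in 10 of 65 (15.4%) against 7.28%, GGGCGG, the GC box, in 26 of 65 (40%) against 38.2%, and TATAAA in 5 of 65 (7.69%) against 15.7%. These counts are descriptions of letters, and binding was not measured.

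Libraries held 11135713 to 50519825 estimated counts (median 27062440). Levels are CPM scaled by TMM (the trimmed mean of M values) unless TPM (a scaled share of transcripts that also allows for their length) is named. The TMM factors ran from 0.463 to 1.548, with WT CD8 post-tx libraries lowest (0.463 to 0.701) and WT CD8 pre-tx libraries highest (1.23 to 1.55), so differences that involve those groups depend most on the scaling and are also given on total counts without these factors. The 6 WT pre-tx libraries went against their sort labels. Their summed level of Cd8a and Cd8b1 was 339.5 to 454 CPM in the libraries labelled CD8 and 334 to 471 CPM in those labelled CD4, their Cd4 was 85 to 111 and 59.4 to 145 CPM, and 12 B cell markers (Cd79a, Cd79b and others) summed to 13342 to 20498 and 14811 to 17983 CPM, against 1197.1 to 2881 CPM in Cat-Tg CD8 and 3129 to 4575 CPM in Cat-Tg CD4 pre-tx libraries. The other 18 libraries matched their labels for Cd4 and Cd8. Each comparison with a WT pre-tx group below rests on these libraries, and is given with how many markers were called. Their part in the results was not tested.

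Per unit length, the most abundant members were mitochondrial. Mean TPM over the 24 libraries was 208 to 17399 (median 1279) for the 13 mitochondrial genes, led by mt-Co3 (chrM:8607-9390, subunit 3 of complex IV) and mt-Atp6 (chrM:7927-8607, subunit a of complex V), and 0.869 to 1944 (median 371) for the 82 nuclear genes, led by Cox4i1 (chr8:120668222-120674207, plus strand, a regulatory subunit of complex IV). Positions of genes are on GRCm38. The most abundant nuclear member of each of the other complexes was Ndufb8 in complex I, Sdhb (the iron-sulfur subunit) in complex II, Uqcr11 in complex III and Atp5e (the ε subunit of the rotor) in complex V. Subunits of 1 complex were not at 1 level. In complex II the group means of Sdha, the flavoprotein that oxidizes succinate, were 35.2 to 148 TPM and those of Sdhb were 221 to 1232 TPM, although the complex holds both in equal number. Some mitochondrial values are uncertain because the transcript index also lists nuclear-genome copies of mitochondrial DNA. Of the 31-base words of mt-Co3, mt-Atp6, mt-Co2, mt-Nd4l and mt-Nd3, 98.1% to 99.9% also occur in a single such copy (62.8% for mt-Nd4 and 45.2% for mt-Co1). All such copies took 6.11% to 18.2% of the counts of mitochondrial members and copies together. The shared share of words did not follow the counts. A second copy of mt-Co1, Gm29216, shares 29.6% of its words and held a mean of 77490 counts, beside 147200 for mt-Co1. The copy of mt-Co3 held 4614, beside 275500 for mt-Co3. Values of mt-Co1 are therefore uncertain too. The gene mt-Nd6 lies on the other strand and meets mt-Nd5 at its end, so that without strand its reads cannot be told from those of RNA transcribed opposite to it, and mt-Atp8 overlaps mt-Atp6 as mt-Nd4l overlaps mt-Nd4.

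**Figure D1:**
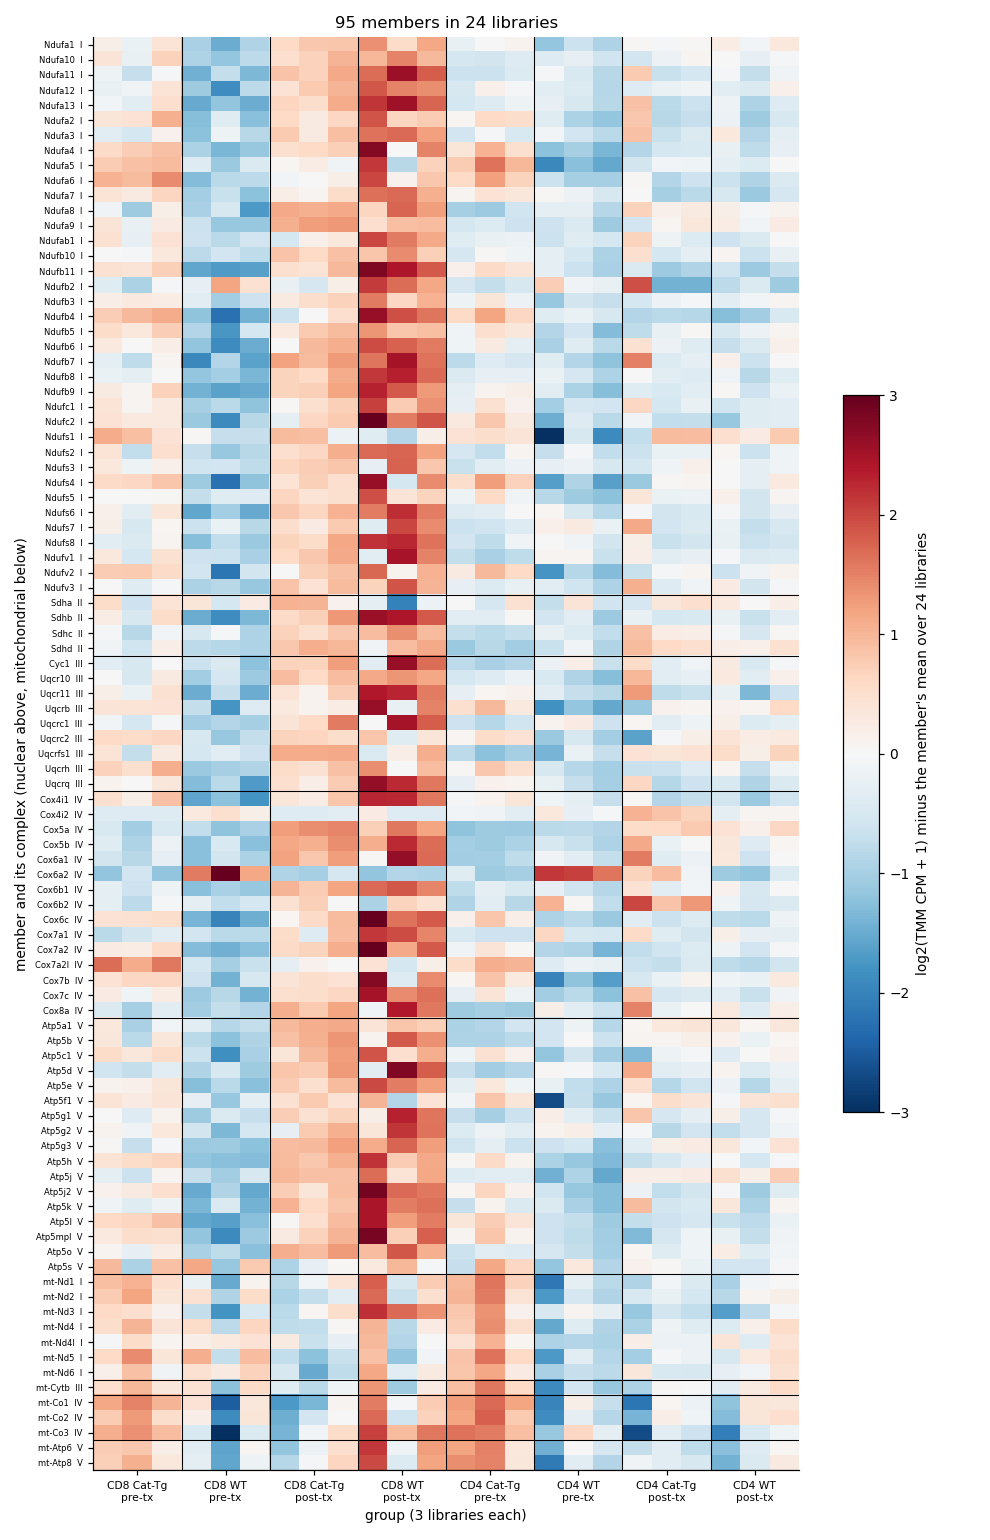
Each row is 1 of the 95 members (its complex after the name, nuclear genes above and mitochondrial genes below) and each column 1 of the 24 libraries in 8 groups of 3. Colour is log2(TMM CPM + 1) minus the member's mean over all libraries, with the scale ending at 3 in either direction. Red is above and blue below the mean. Most nuclear rows are darkest red in WT CD8 post-tx libraries, and mitochondrial rows vary among libraries of a group.

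Summed over the genes of each genome, the nuclear and the mitochondrial mRNAs were both high in WT CD8 post-tx cells. The mitochondrial ones were also high in Cat-Tg pre-tx cells. The 82 nuclear members had sums of 8765, 8840.2 and 8384 CPM, the lowest, before transplant in the 3 WT CD8 libraries, and of 52355, 59802 and 44482 CPM, the highest, in WT CD8 post-tx cells. Between them were Cat-Tg CD8 pre-tx cells with 19729, 15157 and 21933 CPM and Cat-Tg CD8 post-tx cells with 27116, 27582 and 34827 CPM. The 4 CD8 groups did not overlap. The 4 CD4 groups were close, at 13154, 16115 and 15369 CPM in Cat-Tg pre-tx, 12733, 13218 and 9419 CPM in WT pre-tx, 20969, 13987 and 15272 CPM in Cat-Tg post-tx and 16657, 12463 and 16145 CPM in WT post-tx cells, and each overlapped at least 1 other. As a share of all counts, which no scaling factor touches, the nuclear members took 1.18% ± 0.17 (SD, n = 3) in WT CD8 pre-tx, 1.81% ± 0.12 in Cat-Tg CD8 pre-tx, 2.32% ± 0.12 in Cat-Tg CD8 post-tx and 3.12% ± 0.48 in WT CD8 post-tx libraries, the same order over a narrower range.

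The mitochondrial sum was high in Cat-Tg cells before transplant and in WT CD8 cells after it. It was 47434, 56647 and 33669 CPM in Cat-Tg CD4 and 36433, 45416 and 31372 CPM in Cat-Tg CD8 pre-tx cells, against 6591, 22055 and 12761 CPM in WT CD4 and 18911, 4189 and 19585 CPM in WT CD8 pre-tx libraries. All 3 Cat-Tg libraries lay above all 3 WT libraries in both cell types. After transplant the Cat-Tg sums were lower, at 5757, 16781 and 14028 CPM in CD4 and 7808, 13735 and 23167 CPM in CD8 cells, with no overlap with their pre-tx libraries. WT post-tx cells had 7389, 17996 and 20877 CPM in CD4, which overlaps the WT pre-tx values, and 65612, 23398 and 41063 CPM in CD8. These CD8 values all lay above the WT CD8 pre-tx values, and 65612 CPM was the highest of the series. In log2 units the ratio of the mitochondrial to the nuclear sum was 1.60 ± 0.40 in Cat-Tg CD4 pre-tx and 0.99 ± 0.54 in Cat-Tg CD8 pre-tx cells, and -0.57 ± 1.13 and -1.13 ± 0.61 in the same cells post-tx (mean ± SD, n = 3). The WT groups lay between -0.38 ± 0.87 and 0.42 ± 1.30, and their replicates straddled 0. Within a group the mitochondrial sum varied up to 4.68-fold between replicates (WT CD8 pre-tx cells), where the nuclear sum of the same group varied 1.05-fold. After removing group means on the log2 scale, the 78 pairs of mitochondrial genes had a median correlation of 0.825 over 24 libraries and the 3321 pairs of nuclear genes one of 0.20, while the 1066 mixed pairs had -0.04. These pairs share libraries, depth and scaling, and the values only describe how the members move together. The median SD within groups was 0.70 for a mitochondrial and 0.41 for a nuclear member.

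**Figure D2:**
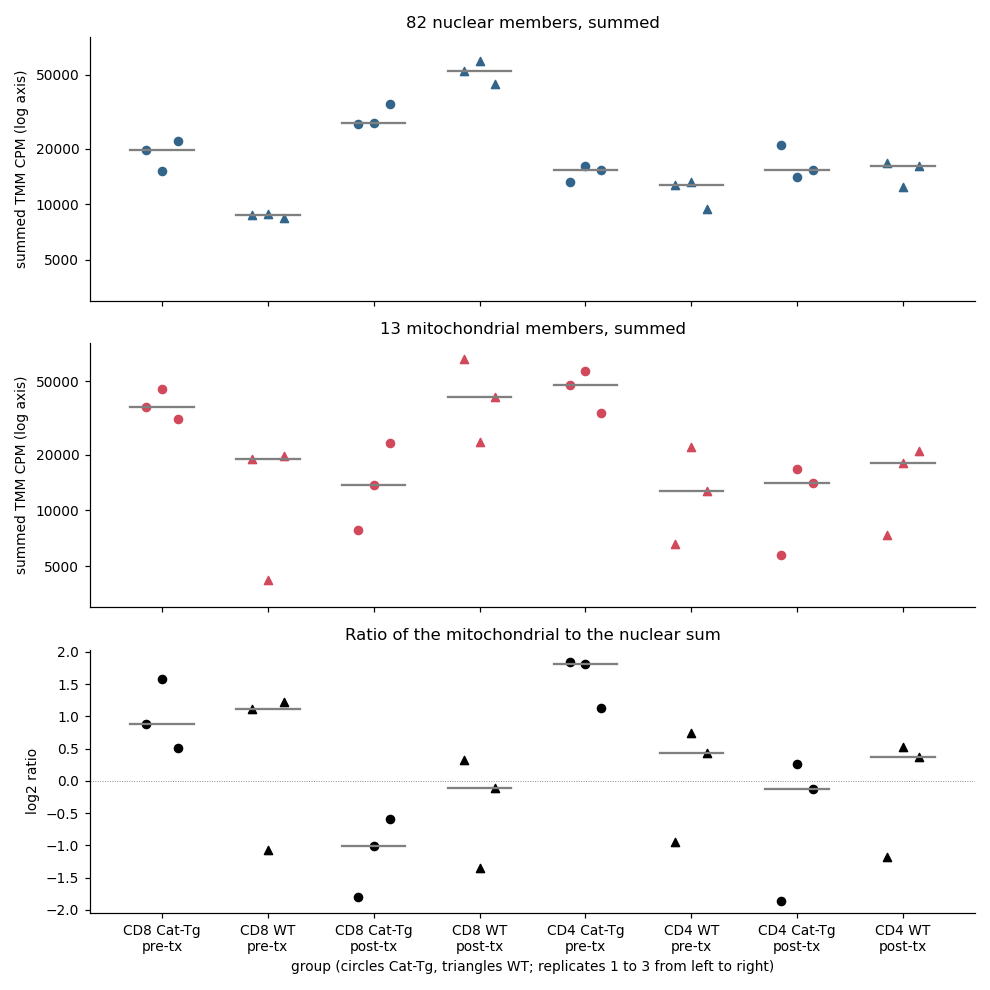
Points are single libraries (circles Cat-Tg, triangles WT, replicates 1 to 3 from left to right) and grey bars are group medians. From top to bottom the axes show the summed TMM CPM of the 82 nuclear members and of the 13 mitochondrial members, both on log axes, and the log2 ratio of the second to the first. The 4 CD8 groups are apart in the nuclear sum, and the ratio is above 0 in all 6 Cat-Tg pre-tx libraries and below 0 in 5 of 6 Cat-Tg post-tx libraries.

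Members were then compared between groups with edgeR's quasi-likelihood test over all genes that passed the filter, with Benjamini-Hochberg adjustment over all of them, and a member was called when the adjusted p was at most 0.05. Fold changes are log2 values. Comparisons of genotype or time within a cell type tested 15967 genes in CD8 (81 nuclear members, since Cox4i2 did not pass there) and 17237 in CD4, and comparisons of cell types tested 19086. Each group enters several comparisons, so these share libraries and are not independent of one another. In bulk RNA, fewer cells of a type and less RNA per cell cannot be told apart.

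Before transplant, Cat-Tg CD8 cells had higher nuclear subunit mRNAs than the library group labelled WT CD8. Of 81 nuclear members 35 were called higher and 1 lower, where 4.5% of all genes were called higher and 4.48% lower, and the median fold change was 1.19 against -0.07 over all genes. The calls covered each complex, with 19 of 37 higher in complex I, 1 of 4 in complex II, 4 of 9 in complex III, 5 of 14 in complex IV and 6 of 17 in complex V. Ndufb4, an accessory subunit of the membrane arm of complex I, had 74, 87.8 and 96.3 CPM in Cat-Tg and 18.5, 8.62 and 16 CPM in WT libraries, a fold change of 2.68 (SE 0.44, adjusted p = 0.0016), and Ndufb8 was the complex I member with the smallest called rise, at 1.11 (SE 0.30, adjusted p = 0.0305). Sdhb had 531, 325 and 660.2 CPM in Cat-Tg and 159.9, 123 and 178 CPM in WT libraries, a fold change of 1.80 (SE 0.34, adjusted p = 0.00443). All Cat-Tg values of both genes lay above all WT values, which the rule by which genes were named required of Ndufb4. In complex III the range of called genes ran from Uqcr11 at 1.41 (SE 0.36, adjusted p = 0.0233) to Uqcrh, the hinge protein beside cytochrome c1, at 1.87 (SE 0.38, adjusted p = 0.00634). In complex IV, Cox7a2l, whose full-length form joins complexes III and IV into supercomplexes, had 568, 383 and 534 CPM in Cat-Tg and 122, 87.8 and 111 CPM in WT libraries, a fold change of 2.30 (SE 0.37, adjusted p = 0.0012). In complex V the ends were Atp5e at 1.39 (SE 0.33, adjusted p = 0.0152) and Atp5l, a membrane subunit that helps join ATP synthase into dimers, at 2.27 (SE 0.38, adjusted p = 0.00168). The 1 nuclear gene called lower was Cox6a2, the isoform of heart and skeletal muscle, which is described with the isoforms below.

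Among mitochondrial members, mt-Co3 alone was called, with 16266, 19757 and 14390.2 CPM in Cat-Tg and 5596, 797 and 5617 CPM in WT libraries and a fold change of 2.19 (SE 0.59, adjusted p = 0.0313), and 12 of 13 were above 0 with a median of 1.17. A correction of each library for transcript length and GC content gave 21 nuclear members higher and 1 lower (median 0.63) and turned the mitochondrial median to -0.52 with 2 members lower. On total counts without TMM factors, which moved all genes of this comparison by -0.58, 11 nuclear members were called higher and 2 lower. Leaving out Cat-Tg replicate 1, 2 or 3 gave 17, 30 or 12 calls in place of 37. Leaving out WT replicate 1, 2 or 3 gave 13, 22 or 13. In the same comparison 9 of 12 T cell markers were called higher and 12 of 12 B cell markers lower, with T cell markers summing to 9577 to 14044 CPM in Cat-Tg and 2349 to 2469 CPM in WT libraries. Their part in the result was not tested.

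In CD4 cells before transplant nearly all mitochondrial members were higher in Cat-Tg libraries. Of 13, 12 were called higher in Cat-Tg than in WT libraries, with a median of 2.12 and a range of 1.20 to 2.36, and the groups did not overlap for any of the 13. The groups of 18.9% of all genes did not overlap with Cat-Tg higher, and 13.3% of all genes were called higher. mt-Cytb, the mitochondrial subunit of complex III, had 2660.3, 4267 and 2153 CPM in Cat-Tg and 379, 957 and 642 CPM in WT libraries, a fold change of 2.36 (SE 0.37, adjusted p = 0.00042). The 3 of complex IV had 2.17 (mt-Co1), 2.34 (mt-Co2) and 1.66 (mt-Co3, adjusted p = 0.0519, not called), and the 2 of complex V had 1.78 (mt-Atp6) and 2.28 (mt-Atp8). In complex I the smallest was mt-Nd3 at 1.20 (SE 0.39, adjusted p = 0.0397) and mt-Nd1 had 2.20, mt-Nd2 2.20, mt-Nd4 1.94, mt-Nd4l 1.67, mt-Nd5 2.12 and mt-Nd6 1.77. With the length and GC correction 8 of 13 were called higher and the median was 1.11.

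Of the 82 nuclear members 31 were called higher and 1 (Cox6a2) lower in CD4 Cat-Tg pre-tx cells, where 13.3% of all genes were called higher and 7.16% lower, with a median of 0.57 against 0.03 over all genes. The calls were 16 in complex I, 0 in complex II, 3 in complex III, 5 in complex IV and 7 in complex V. Ndufa5, a subunit of the matrix arm of complex I, had 67.9, 125 and 79.9 CPM in Cat-Tg and 9.58, 16.1 and 13 CPM in WT libraries, a fold change of 2.96 (SE 0.32, adjusted p = 3.17e-05), and Ndufb9 had the smallest called one at 0.94 (SE 0.27, adjusted p = 0.0215). In complex III the called genes were Uqcrb (2.27, SE 0.34, adjusted p = 0.0003), Uqcrh (1.36, SE 0.27, adjusted p = 0.00233) and the core protein Uqcrc2 (1.36, SE 0.35, adjusted p = 0.0116). In complex IV they ran from Cox7c (1.19, SE 0.34, adjusted p = 0.0217) to Cox7b (2.21, SE 0.30, adjusted p = 0.000139), which had 86.5, 152 and 103 against 20.1, 35.8 and 25.8 CPM. In complex V they ran from Atp5j, coupling factor 6 of the stator (1.08, SE 0.21, adjusted p = 0.00203), to Atp5f1, subunit b of the stator (1.90, SE 0.38, adjusted p = 0.00217). The 24 nuclear members below 0 included -0.21 for Cox5b and -0.70 for Cox8a, neither called. Beside this, 12 of 12 T cell markers were called higher and 12 of 12 B cell markers and 5 of 7 red cell markers lower, and red cell markers summed to 1296 to 2119 CPM in Cat-Tg and 7788 to 22693 CPM in WT libraries. Their part in the result was not tested.

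After transplant, WT CD8 cells had the highest nuclear subunit mRNAs of the series. Set against the pre-tx libraries with the WT CD8 label, 71 of 81 nuclear members were called higher and 1 lower, where 13.2% of all genes were called higher and 10.4% lower, and the median was 2.32 against -0.23 over all genes. Of the 71, 54 rose by at least 2 on the log2 scale, which 8.15% of all genes did. Complex I had 35 of 37 higher, complex II 3 of 4, complex III 7 of 9, complex IV 11 of 14 and complex V 15 of 17. Ndufb11, another subunit of the membrane arm of complex I, had 1723, 1310.0 and 885 CPM post-tx and 82.9, 74.4 and 77.9 CPM pre-tx, a fold change of 3.93 (SE 0.35, adjusted p = 5.32e-06), and the core subunit Ndufs3 had 1.51 (SE 0.43, adjusted p = 0.0182). In complex II, Sdhb had 2746, 2446 and 1623 CPM post-tx, a fold change of 3.76 (SE 0.37, adjusted p = 1.02e-05), the membrane anchors Sdhc and Sdhd had 1.42 and 1.47, both called, and Sdha had 221, 66.4 and 239.8 CPM post-tx against 349.7, 187 and 324 CPM, a fold change of -0.81 that was not called (adjusted p = 0.272). Thus 3 subunits of complex II rose and the value of the fourth was below 0.

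In complex III the ends of the called range were Uqcrh at 1.78 (SE 0.38, adjusted p = 0.00315) and Uqcrq at 3.30 (SE 0.38, adjusted p = 3.06e-05), with 1586, 1216 and 768 CPM post-tx and 104, 145 and 78.3 CPM pre-tx. Cox4i1 had 4559.6, 4517 and 2799 CPM post-tx and 314, 401 and 267 CPM pre-tx, a fold change of 3.45 (SE 0.35, adjusted p = 1.12e-05), and Cox5a had 2.05. In complex V the ends were Atp5a1, the α subunit of the catalytic head, at 1.16 (SE 0.34, adjusted p = 0.022) and Atp5j2, a membrane subunit, at 3.35 (SE 0.42, adjusted p = 5.4e-05). The 3 post-tx libraries did not always move together. Cox7b had 569, 63.6 and 225 CPM, Ndufa4 1065, 158 and 438 CPM and Cox6a1 269.7, 1632 and 864 CPM in replicates 1, 2 and 3, so replicate 1 was high for the first 2 genes and low for Cox6a1 and replicate 2 the reverse. For 72 of 81 nuclear members the pre-tx and post-tx libraries did not overlap, a count of either direction that includes Cox6a2, which was lower. Of all genes 15.4% were higher without overlap, and the share lower without overlap was not counted. Leaving out any 1 library gave 68 to 75 calls in place of 76.

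Fewer mitochondrial members were called in the same cells. Only mt-Nd3 (2.60, SE 0.46, adjusted p = 0.000871), mt-Co3 (2.43, SE 0.60, adjusted p = 0.00807), mt-Atp6 (1.71) and mt-Atp8 (1.69) were called, the first 3 among the genes with near-complete copies, 4 of the 7 complex I genes lay below 0, and the median was 0.89. Post-tx mt-Co3 was 31659, 14741 and 22766 CPM and pre-tx 5596, 797 and 5617 CPM, with replicate 2 the lowest of both groups. After the length and GC correction 62 nuclear members were called higher and 2 lower (median 1.37), and the mitochondrial median was -0.60 with 3 genes lower. On total counts all genes moved by -1.01, 46 nuclear members were called higher and 2 lower (median 1.18), and the mitochondrial median was -0.0046 with 1 gene higher. In this comparison 12 of 12 B cell markers, 7 of 10 myeloid markers and 7 of 7 red cell markers were called lower and 11 T cell and 10 of 10 cycling-cell markers (Mki67, Top2a and others) higher. Cycling-cell markers summed to 4385 to 4926 CPM post-tx and 271 to 492 CPM pre-tx. Their part in the result was not tested.

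**Figure D3:**
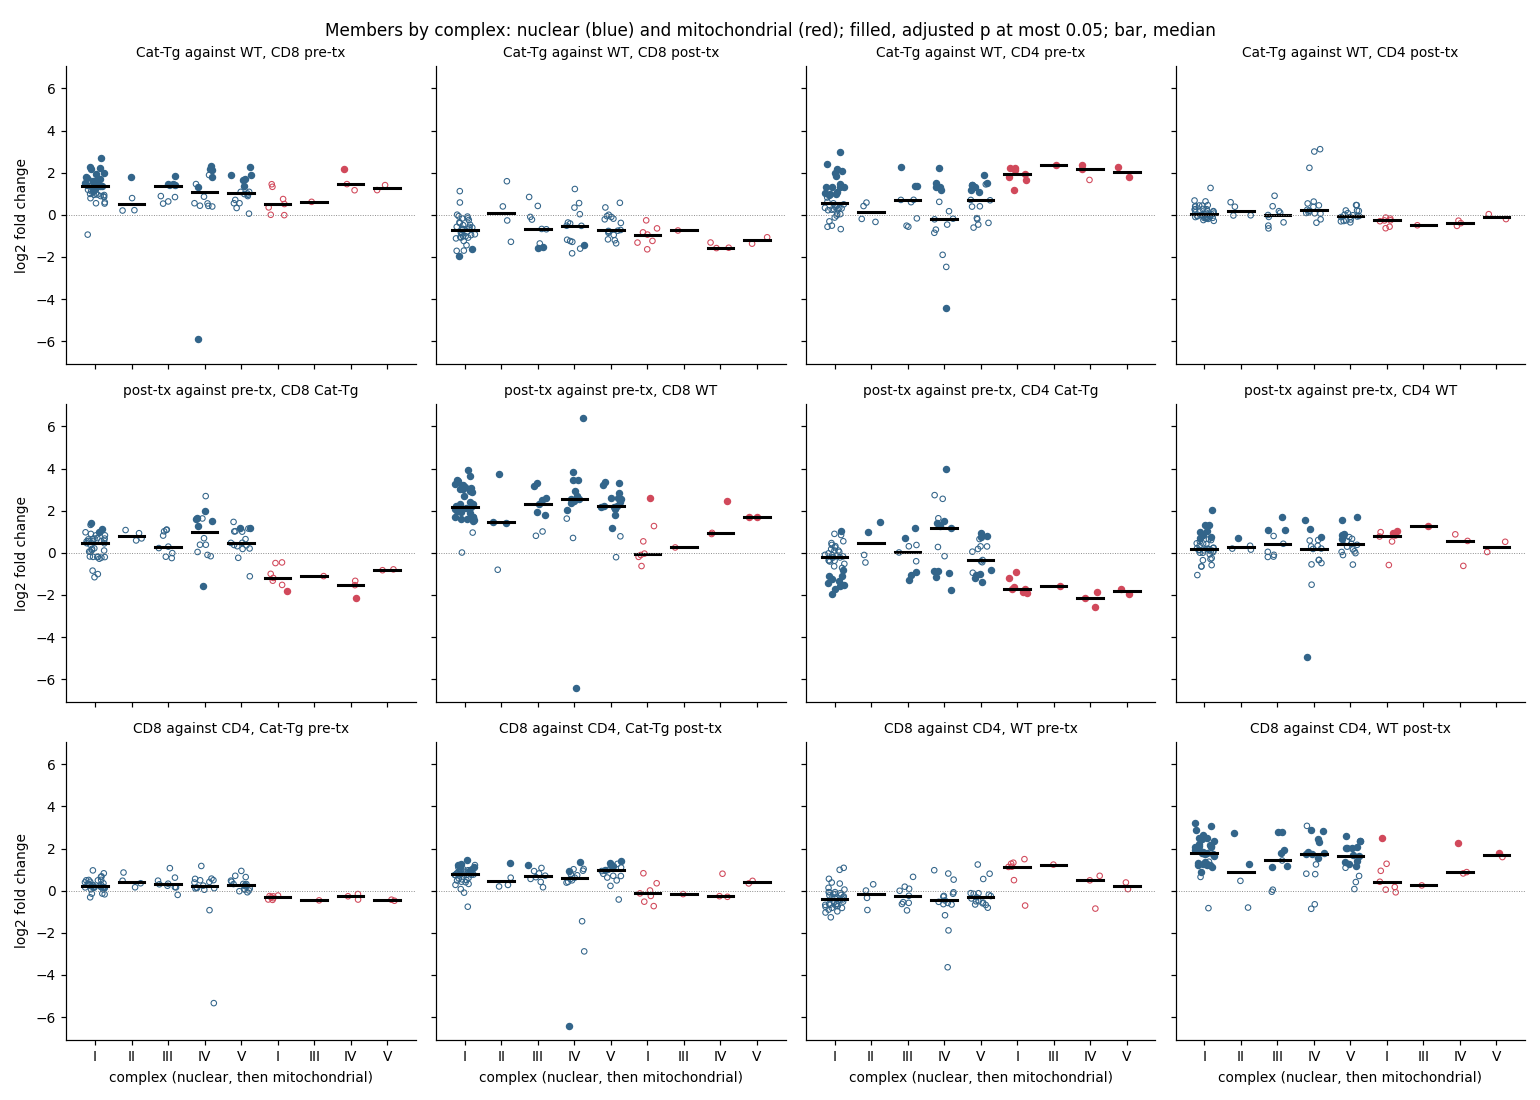
Each panel is 1 comparison of 2 groups of 3 libraries, and each point the log2 fold change of 1 member, placed by complex with nuclear genes (blue) left of mitochondrial genes (red). Filled points had an adjusted p of at most 0.05 (edgeR's quasi-likelihood test), and bars are medians. Most nuclear points are filled and above 0 for WT CD8 cells over time, and all mitochondrial points are filled and below 0 for Cat-Tg CD4 cells over time.

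Cat-Tg CD8 cells, whose pre-tx libraries matched their sort, had fewer calls over the transplant. Of 81 nuclear members 10 were called higher and 1 lower, where 8.71% of all genes were called higher and 5.22% lower, so the share of members called was close to the background, and the median was 0.54 against -0.26 over all genes. Complex IV took 5 of the 10, complex I 3, complex V 2 and complexes II and III 0. Cox5a, which sits on the matrix side of complex IV, had 121, 80.6 and 121 CPM pre-tx and 402, 441 and 459 CPM post-tx, a fold change of 1.97 (SE 0.34, adjusted p = 0.00166). The others were Cox5b (1.63), Cox6a1 (1.59), Cox8a (1.53) and Cox6b1 (1.29) of complex IV, Ndufb7 (1.40), Ndufa11 (1.12) and Ndufa9 (1.00) of complex I, and Atp5g3 (1.19), which encodes the c-ring subunit, and Atp5a1 (1.18) of complex V. Cox7a2l went the other way, with 568, 383 and 534 CPM pre-tx and 146, 195 and 177 CPM post-tx, a fold change of -1.56 (SE 0.36, adjusted p = 0.0103). All post-tx values of Cox5a lay above and all those of Cox7a2l below the pre-tx values, which the rule by which they were named required.

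All 13 mitochondrial members were below 0 in Cat-Tg CD8 cells, with a median of -1.19, and 9 did not overlap between the groups, where 22.3% of all genes were lower without overlap. The called ones were mt-Co1, with 9070.0, 11387 and 8108 CPM pre-tx and 1217, 1556 and 4288 CPM post-tx and a fold change of -2.13 (SE 0.63, adjusted p = 0.0356), and mt-Nd5 at -1.82 (SE 0.54, adjusted p = 0.0376). The length and GC correction changed this picture. It left mt-Co1 at -0.97 and mt-Nd5 at 0.05, neither called, and turned the mitochondrial median to 0.74 with 5 genes called higher, while 22 nuclear members were called higher and 1 lower. Cox5a and Cox7a2l kept their calls, at 2.35 and -1.46. Leaving out 1 library gave 6, 3 and 5 calls without Cat-Tg pre-tx replicates 1, 2 and 3 and 3, 4 and 8 without post-tx replicates 1, 2 and 3, and 8 calls without the WT pre-tx libraries in the fit, in place of 13. Cycling-cell markers were called higher for 9 of 10 genes, B cell markers lower for 9 of 12, and their part was not tested.

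In Cat-Tg CD4 cells the mitochondrial mRNAs fell over the transplant. All 13 mitochondrial members were called lower post-tx than pre-tx, where 28.9% of all genes were called lower and 16.2% higher, with a median of -1.73 against -0.38 over all genes, and for 11 of 13 the groups did not overlap, where 31.3% of all genes were lower without overlap. mt-Co3 had 23679, 22624 and 14296 CPM pre-tx and 1184, 6035 and 4975 CPM post-tx, a fold change of -2.56 (SE 0.59, adjusted p = 0.00352). mt-Co1 had 9544, 13141 and 9207 and 895, 4185 and 3555 CPM, a fold change of -2.13 (SE 0.57, adjusted p = 0.00841), and mt-Cytb had 2660.3, 4267 and 2153 and 745, 1462 and 1405 CPM, a fold change of -1.59 (SE 0.36, adjusted p = 0.0029). Post-tx replicate 1 was the lowest library for each. The rest had -1.86 (mt-Co2), -1.94 (mt-Atp6), -1.73 (mt-Atp8), -1.84 (mt-Nd1), -1.73 (mt-Nd2), -1.91 (mt-Nd3), -1.63 (mt-Nd4), -1.70 (mt-Nd5), -1.22 (mt-Nd6) and -0.89 (mt-Nd4l).

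The direction of the mitochondrial mRNAs depended on whether transcript length and GC content were corrected for. Mitochondrial members have a GC content of 31.9% to 41.1% and nuclear members one of 41.3% to 60.8%, without overlap, and only 8.13% of all genes lie at or below the highest mitochondrial value. Over all 17237 genes of this comparison fold changes had a Spearman correlation with GC of 0.38, and over the 82 nuclear members alone one of 0.48. With the length and GC correction 7 mitochondrial members were called higher, 0 lower, the median became 1.10, and mt-Co1 (-0.90) and mt-Co3 (-0.70) were the ones still below 0. The correction for these genes is drawn from few genes, since 1.23% of all genes have a GC content at or below the mitochondrial median. Which of the 2 values is nearer to the mRNA content was not tested. Without the WT pre-tx libraries in the fit 12 of 13 were called lower, and with nuclear-genome copies added to their genes the median was still -1.73.

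**Figure D4:**
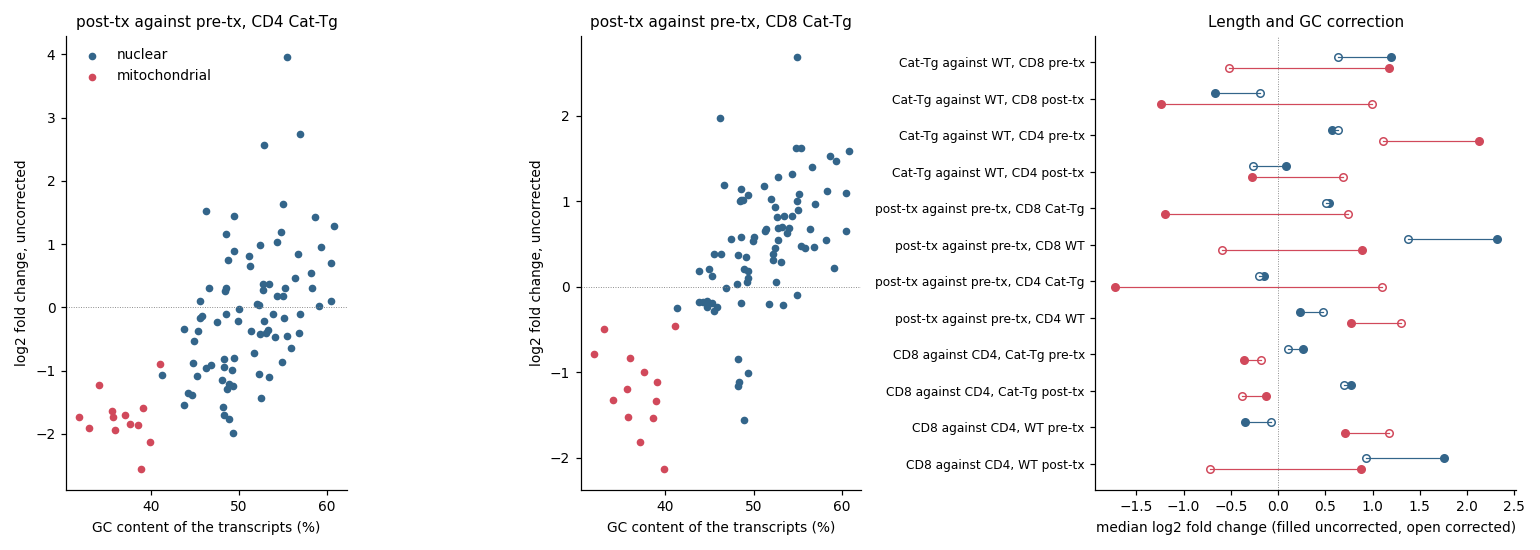
The left and middle panels plot the log2 fold change over time of each nuclear (blue) and mitochondrial (red) member in Cat-Tg CD4 and Cat-Tg CD8 cells against the GC content of its transcripts in percent. The right panel gives, per comparison, the median log2 fold change of each set before (filled) and after (open) correction for length and GC content. The 2 sets do not overlap in GC content, and the mitochondrial median crosses 0 under the correction in 7 of the 12 comparisons.

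The nuclear members of Cat-Tg CD4 cells split much as all genes did. Of 82, 13 (15.9%) were called higher and 23 (28%) lower, where 16.2% and 28.9% of all genes were, with a median of -0.15 against -0.38 over all genes. Complex I had 1 higher and 10 lower, complex II 2 higher and 0 lower, complex III 2 and 3, complex IV 5 and 5, and complex V 3 and 5. In complex I the one higher was Ndufa8 (1.03, SE 0.24, adjusted p = 0.00377), and the lowest was Ndufb4, which had 67.1, 101 and 68.6 CPM pre-tx and 23.3, 24.6 and 24 CPM post-tx, a fold change of -1.98 (SE 0.30, adjusted p = 0.000157). Ndufa5 and Ndufa4 (named with complex I, although its product is now placed in complex IV) had -1.71 and -1.54, both called. In complex II, Sdhd had 76.7, 94.2 and 80.3 CPM pre-tx and 325, 256 and 237 CPM post-tx, a fold change of 1.44 (SE 0.23, adjusted p = 0.00023), and Sdhc had 0.99, also called, while Sdhb (-0.46) and Sdha (-0.10) were not. In complex III the ends were the Rieske iron-sulfur protein Uqcrfs1 (1.16, SE 0.25, adjusted p = 0.00229) and Uqcrh (-1.29, SE 0.27, adjusted p = 0.00182).

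Complex IV held the clearest rises. Cox5a had 71.5, 79.1 and 77.7 CPM pre-tx and 244, 253 and 287 CPM post-tx, a fold change of 1.52 (SE 0.21, adjusted p = 7.37e-05), and Cox8a (1.42), Cox6a1 (1.29) and Cox5b (1.20) were called higher too. Cox7a2l had 261, 381 and 358 CPM pre-tx and 113, 108 and 131 CPM post-tx, a fold change of -1.76 (SE 0.22, adjusted p = 3.87e-05). In complex V, Atp5d (the δ subunit of the rotor, 0.96, SE 0.32, adjusted p = 0.023), Atp5a1 (0.81) and Atp5b (the catalytic β subunit, 0.75) rose and Atp5l fell from 336, 438 and 344 to 159.6, 169 and 183 CPM (-1.38, SE 0.23, adjusted p = 0.000348). Post-tx replicate 1 was apart for several members, with 961, 297 and 337 CPM of Cox8a, 774, 205 and 233 CPM of Cox6a1 and 623, 149.7 and 162 CPM of Uqcr11 in replicates 1, 2 and 3. Scaling moved the balance. With DESeq2 size factors all genes moved by 0.25, 18 nuclear members were called higher and 18 lower and the nuclear median was 0.09, and with library sizes that leave out mitochondrial genes it was 0.07, while without the WT pre-tx libraries in the fit 20 were called higher and 15 lower. Of 7 red cell markers 6, and of 10 myeloid markers 6, were called higher, and 6 of 12 T cell markers lower, with red cell markers at 4006 to 26283 CPM post-tx and 1296 to 2119 CPM pre-tx and T cell markers at 5575 to 7251 and 8819 to 10703 CPM. Cycling-cell markers were called higher for 9 of 10 genes and summed to 1030.1 to 1675 CPM post-tx and 317 to 399 CPM pre-tx, and B cell markers were called lower for 9 of 12. Their part in the result was not tested.

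WT CD4 cells had fewer calls over time than WT CD8 cells. Against the libraries labelled WT CD4 pre-tx, 20 of 82 nuclear members (24.4%) were called higher and 1 (Cox6a2, 1.22%) lower, where 14.7% of all genes were called higher and 9.6% lower, with a median of 0.23 against -0.13 over all genes, and 3 of 13 mitochondrial members (mt-Cytb 1.27, mt-Nd4l 1.04 and mt-Nd4 0.95) were called higher with a median of 0.77. Ndufs1, the largest iron-sulfur subunit of complex I, had 5.11, 40.6 and 14.5 CPM pre-tx and 80.8, 67.4 and 99.2 CPM post-tx, a fold change of 2.02 (SE 0.53, adjusted p = 0.0115). In complexes III, IV and V the largest called rises were Uqcrb (1.72, SE 0.33, adjusted p = 0.00161), Cox7b (1.55, SE 0.29, adjusted p = 0.00128) and Atp5j, with 60.5, 87.8 and 57.5 CPM pre-tx and 232, 188 and 278 CPM post-tx (1.68, SE 0.22, adjusted p = 4.82e-05). Leaving out WT pre-tx replicate 1 or 3 or WT post-tx replicate 3 gave 13, 9 and 11 calls in place of 24, and the length and GC correction gave 47. T cell markers were called higher for 12 of 12 genes and cycling-cell markers for 10 of 10, the latter summing to 2023 to 2698 CPM post-tx and 289.7 to 384 CPM pre-tx. B cell markers were called lower for 12 of 12 genes, red cell markers for 6 of 7 (653 to 1167 CPM post-tx and 7788 to 22693 CPM pre-tx) and myeloid markers for 1 of 10 (766 to 1245 and 2150.2 to 3949 CPM). Their part was not tested.

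The change over time differed between the genotypes by the interaction test of the same fits. In CD8 cells 40 of 81 nuclear members and 4 of 13 mitochondrial members had a smaller rise or a larger fall in Cat-Tg than in WT cells and 1 nuclear member the reverse, where 4.78% of all genes were called in the first direction and 5.92% in the second, with medians of -1.80 and -2.27. In CD4 cells 26 nuclear and 11 mitochondrial members were lower by this test and 2 nuclear members higher, where 14.1% and 7.25% of all genes were, with medians of -0.46 and -2.38 against -0.55 over all genes. Both tests rest on the WT pre-tx libraries that went against their labels, and their values by gene are in the closing section. With the length and GC correction the mitochondrial medians became 1.51 in CD8 and -0.43 in CD4 cells.

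Post-tx Cat-Tg and WT cells, whose contrast holds no pre-tx group, gave few calls. The pre-tx libraries, those of WT included, were still in the fit and entered its filter, scaling and estimate of the spread. In CD8 cells 5 of 81 nuclear members were called lower in Cat-Tg and 0 higher, where 0.564% of all genes were called lower and 1.08% higher. They were Ndufb4 (-1.97, SE 0.43, adjusted p = 0.0374) and Ndufb11 (-1.61, SE 0.32, adjusted p = 0.0277) of complex I, Uqcrq (-1.55, SE 0.36, adjusted p = 0.0423) and Uqcr11 (-1.53, SE 0.36, adjusted p = 0.0456) of complex III and Cox4i1 (-1.43, SE 0.33, adjusted p = 0.0413) of complex IV. Cox4i1 had 1201, 1095 and 1654 CPM in Cat-Tg and 4559.6, 4517 and 2799 CPM in WT cells, Ndufb11 344, 324 and 485 and 1723, 1310.0 and 885 CPM, and Ndufb4 27.9, 44.1 and 62.5 and 276, 170.3 and 137 CPM. Every Cat-Tg library was below every WT library for these 3 genes, which the rule by which they were named required. Over all 81 nuclear members 67 were below 0 with a median of -0.67 against -0.18 over all genes, and Sdhb (-1.28, adjusted p = 0.0652) was just short of the threshold. The 13 mitochondrial members were all below 0 with a median of -1.24, none was called, and 7 had an unadjusted p under 0.05. DESeq2 called 20 members of both sets in place of 5.

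The 5 calls were at the limit of what 3 libraries a group gave. The count was 0 without Cat-Tg replicate 1 or 2 or without the WT pre-tx libraries in the fit, 2 without Cat-Tg replicate 3 or WT replicate 1, 3 without WT replicate 3 and 16 without WT replicate 2. On total counts, which moved all genes by 0.18, 2 were called and the nuclear median was -0.41. With the length and GC correction 8 nuclear members were lower and 1 higher, the nuclear median was -0.19 and the mitochondrial one 0.99. Cycling-cell markers summed to 3369 to 3683 CPM in Cat-Tg and 4385 to 4926 CPM in WT cells and T cell markers to 12621 to 16000.5 and 17650.4 to 23240.2 CPM, and their part was not tested.

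In CD4 post-tx cells no member was called between Cat-Tg and WT, while 10.1% of all genes were. Under edgeR's quasi-likelihood test 3 nuclear and 0 mitochondrial members had an unadjusted p under 0.05, and limma-voom and DESeq2 called 2 each. The nuclear median was 0.08 and the mitochondrial one -0.28, against -0.19 over all genes. Cox4i1 had 964, 510.4 and 572 CPM in Cat-Tg and 639, 433 and 619.7 CPM in WT cells, Cox5a 244, 253 and 287 and 227, 187 and 259 CPM, and mt-Co3 1184, 6035 and 4975 and 1836, 5561 and 7000.1 CPM, with overlap for each. The highest values were those of 3 scarce isoforms, Cox6a2 (3.12), Cox6b2 (3.01) and Cox4i2 (2.23), none called. The length and GC correction called 10 nuclear members lower and 3 mitochondrial members higher. Of 7 red cell markers 7 and of 10 myeloid markers 6 were called higher in Cat-Tg cells.

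The difference of the genotype effect between CD8 and CD4 post-tx cells was tested in 1 fit of all 24 libraries. No member was called, where 0.362% of all genes were, with medians of -1.04 (nuclear) and -1.16 (mitochondrial). An unadjusted p under 0.05 was reached by 33 nuclear and 1 mitochondrial members, limma-voom called 0 and DESeq2 17. The genotype effect therefore was not shown to differ between the cell types by the main test, and it was not shown to be alike.

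CD8 and CD4 cells were set beside each other within genotype and time. WT post-tx cells differed most. Of 82 nuclear members 64 were called higher in CD8 and 0 lower, where 7.14% of all genes were called higher and 5.53% lower, with a median of 1.76 against 0.13 over all genes. Complex I had 34 of 37 higher, complex II 2 of 4, complex III 6 of 9, complex IV 9 of 15 and complex V 13 of 17. Ndufb11 had 1723, 1310.0 and 885 CPM in CD8 and 162, 114 and 148 CPM in CD4 cells, a fold change of 3.21 (SE 0.31, adjusted p = 1.12e-06). Sdhb had 2746, 2446 and 1623 and 387, 285 and 355 CPM (2.73, SE 0.32, adjusted p = 1.13e-05), Uqcrq 1586, 1216 and 768 and 186, 136 and 189.8 CPM (2.80, SE 0.38, adjusted p = 3.73e-05), and Cox4i1 4559.6, 4517 and 2799 and 639, 433 and 619.7 CPM (2.81, SE 0.33, adjusted p = 1.02e-05). In all 4 the CD8 libraries were above the CD4 libraries, which the rule by which genes were named required of Ndufb11 and Uqcrq. In complex V, Atp5j2 had the highest called value (2.61, SE 0.37, adjusted p = 5.09e-05), and in complex IV it was Cox6c (2.87, SE 0.36, adjusted p = 1.99e-05). The mitochondrial members mt-Nd3 (2.51), mt-Co3 (2.26) and mt-Atp6 (1.79), all with near-complete copies, were called, and the mitochondrial median was 0.88.

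On total counts without TMM factors, which moved all genes of this WT comparison by -0.88, 31 nuclear members were called higher and 2 lower with a median of 0.85. The length and GC correction gave 45 higher and 1 lower with a median of 0.93 and a mitochondrial median of -0.72, the 6 libraries alone gave 27 calls, the replicate number as a block gave 41, and leaving out CD4 WT post-tx replicate 2 gave 41 in place of 67. T cell markers were called higher in CD8 for 5 of 12 genes, cycling-cell markers for 4 of 10 and myeloid markers lower for 8 of 10, with myeloid markers at 201 to 293 CPM in CD8 and 766 to 1245 CPM in CD4 cells. Their part in the result was not tested.

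Cat-Tg post-tx cells had the same direction with fewer calls, 17 nuclear members higher in CD8 and 1 lower, where 1.97% of all genes were called higher and 4.03% lower, with a median of 0.77 against 0.19 over all genes. The one lower was Cox4i2, which passed the filter through the CD4 group and is described with the isoforms below. Ndufb11 (1.44, SE 0.29, adjusted p = 0.00301) led in complex I, Uqcrh (1.20, SE 0.32, adjusted p = 0.0264) was the only call in complex III, Cox7a2 (1.38, SE 0.35, adjusted p = 0.0165) led in complex IV and Atp5h, subunit d of the stator, led in complex V (1.42, SE 0.31, adjusted p = 0.00478), while Sdhb had 678, 745 and 1107 CPM in CD8 and 386, 311 and 331 CPM in CD4 cells (1.30, SE 0.31, adjusted p = 0.0104). Of the 13 mitochondrial members 0 were called and 0 had an unadjusted p under 0.05 in edgeR, and their median was -0.13. T cell markers were called higher in CD8 for 5 of 12 genes and cycling-cell markers for 3 of 10. Myeloid markers were called lower for 6 of 10 genes, and B cell markers lower for 5 and higher for 1 of 12. T cell markers summed to 12621 to 16000 CPM in CD8 and 5575 to 7251 CPM in CD4 cells. Myeloid markers summed to 321 to 761 and 2775 to 3916 CPM. The part of these markers was not tested. In place of 18 calls there were 11 without CD8 replicate 1 or 2, 4 without CD8 replicate 3, 1 without CD4 replicate 2, 5 without CD4 replicate 3, 10 without the WT pre-tx libraries in the fit, 4 on total counts and 4 with the replicate number as a block. CD4 and CD8 cells came from the same mice, but which libraries share a mouse is not given, and the main test takes them as independent. The block above pairs same-numbered CD8 and CD4 libraries, and allows for shared mice only if the numbers follow them. Before transplant, no member was called between CD8 and CD4 in either genotype. In Cat-Tg cells, where 1.48% of all genes were called, the nuclear median was 0.26 and the mitochondrial one -0.36, 8 nuclear members had an unadjusted p under 0.05 in edgeR, and DESeq2 called 1. In the libraries labelled WT, where 0.021% of all genes were called, the medians were -0.35 and 0.71, 17 nuclear and 6 mitochondrial members had an unadjusted p under 0.05 and DESeq2 called 6. The labels of that last pair were not matched by Cd4 and Cd8 levels, as given above.

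Several subunits of complexes IV and V exist as isoforms, of which the form of most tissues was by far the more abundant here per unit length. Group means were 862 to 3881 TPM for Cox4i1 and 0 to 3.2 TPM for Cox4i2, the form of lung, 405 to 1417 TPM for Cox6a1 and 0.157 to 33.4 TPM for Cox6a2, 497 to 1377 TPM for Cox6b1 and 0.701 to 16.1 TPM for Cox6b2, the form of testis, and 209 to 984 TPM for Cox7a2 and 0.389 to 14.4 TPM for Cox7a1, the form of heart and muscle. Cox7a2l had 115 to 449.5 TPM. Cox8a had 516 to 1838 TPM and Cox7b 56 to 276 TPM, and their counterparts Cox8b, Cox8c and Cox7b2 did not pass the filter. Ndufa4 had 247 to 940.4 TPM and Ndufa4l2, its paralog induced by low oxygen, at most 0.564 TPM. The 3 genes for the identical mature c-ring subunit had 301 to 819 (Atp5g1), 88.8 to 170.4 (Atp5g2) and 311 to 910.1 TPM (Atp5g3), of which Atp5g2 shares 37.5% of its 31-base words with the pseudogene Gm10175 and is uncertain.

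The scarce isoforms gave the most extreme fold changes of the set, at low levels. Cox6a2 had 5.69, 23.7 and 4.1 CPM in WT CD8 and 8.86, 8.45 and 5.93 CPM in WT CD4 pre-tx libraries, and 0, 0.517 and 0 CPM in Cat-Tg CD8 and 0.753, 0.0878 and 0.135 CPM in Cat-Tg CD4 pre-tx libraries. It thus was highest in the 6 libraries that also held the most B cell markers. In CD4 cells it was called lower in Cat-Tg before transplant (adjusted p = 0.0133) and lower post-tx in WT cells (adjusted p = 0.00655). Cox6b2 had 1, 13 and 2 counts pre-tx and 73, 138 and 190.0 counts post-tx in Cat-Tg CD4 cells. Cox7a1 had 5, 0 and 0 counts in WT CD8 pre-tx libraries and 84, 75 and 81 counts post-tx, 6.6, 5.76 and 3.79 CPM. Cox4i2 had 1.69, 1.39 and 1.08 CPM in Cat-Tg CD4 post-tx cells, from 18, 77 and 54 counts, and 0, 0 and 1 counts in Cat-Tg CD8 post-tx cells. These last 3 genes, and Cox6a2 in CD8 cells, passed the filter on low values only through the group in which they were high, so they had to differ, and their calls, which stand in the counts above, are no evidence of a difference.

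**Figure D5:**
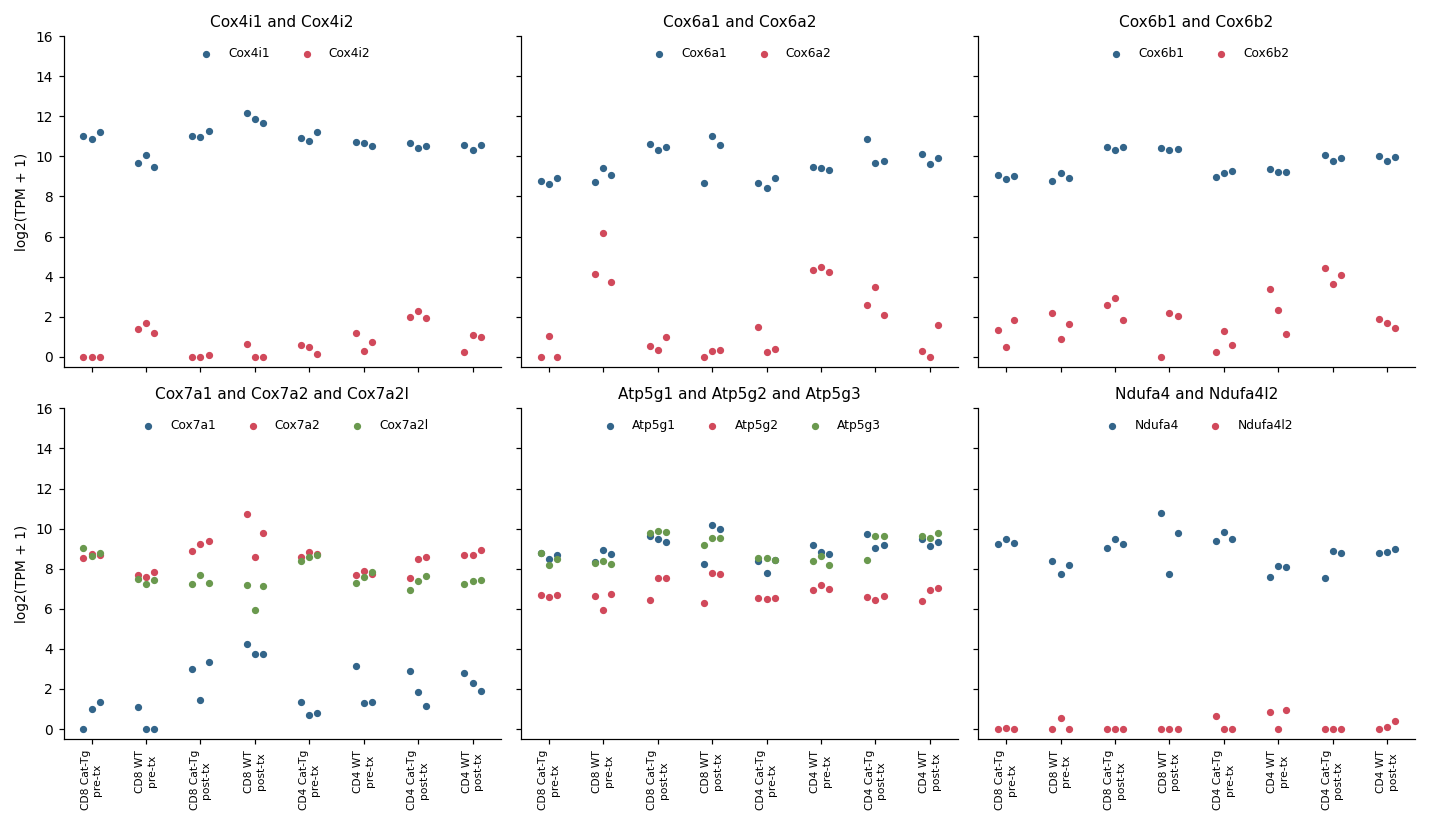
Points are log2(TPM + 1) of single libraries for 6 sets of paralogous subunits, in 8 groups of 3 libraries. In 4 panels every point of the main form lies above every point of the scarce one, Cox7a1 lies below both Cox7a2 and Cox7a2l, and Atp5g2 lies below Atp5g1 and Atp5g3 in each library.

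Other genes that serve the same complexes were counted from lists. Of 78 proteins of the mitochondrial ribosome, which translates the 13 mitochondrial mRNAs, 50 (64.1%) were called higher and 0 lower over time in WT CD8 cells, where 13.2% of all genes were called higher, with a median of 1.71. In CD8 against CD4 WT post-tx cells 45 (57.7%) were called higher and 0 lower, where 7.14% of all genes were higher (median 1.29), and in the Cat-Tg ones 7 (8.97%) and 0, where 1.97% were (0.59). Before transplant 25 (32.1%) were called higher and 0 lower in Cat-Tg CD8 cells, where 4.5% of all genes were higher (1.12), and 29 (37.2%) and 1 in Cat-Tg CD4 cells, where 13.3% were (0.56). Over time in Cat-Tg cells the shares were near or below those over all genes, with 7 (8.97%) higher and 18 (23.1%) lower in CD4 cells, where 16.2% and 28.9% of all genes were (-0.29), and 1 (1.28%) each way in CD8 cells, where 8.71% and 5.22% were (0.17). In WT CD4 cells over time 15 (19.2%) were higher and 1 lower, where 14.7% and 9.6% were (0.33). In the post-tx genotype comparisons 0 were higher. In CD8 cells 2 (2.56%) were lower, where 0.564% of all genes were. In CD4 cells 1 (1.28%) was lower, where 10.1% of all genes were called in either direction. Of 45 assembly factors 18 (40%) were called higher and 0 lower over time in WT CD8 cells, where 13.2% and 10.4% of all genes were. In Cat-Tg CD4 pre-tx cells 11 (24.4%) were higher and 0 lower, where 13.3% and 7.16% were. Over time in Cat-Tg CD4 cells 3 (6.67%) were higher and 12 (26.7%) lower, where 16.2% and 28.9% were, the latter share close to that of all genes.

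Of 32 genes for the upkeep and expression of mitochondrial DNA, 2 (6.25%) were called higher and 11 (34.4%) lower over time in Cat-Tg CD4 cells, where 16.2% and 28.9% of all genes were, with a median of -0.76 against -0.38 over all genes. In Cat-Tg CD4 pre-tx cells 8 (25%) were higher and 2 (6.25%) lower, where 13.3% and 7.16% of all genes were. Those with the smallest p over time were Ssbp1, the mitochondrial single-strand DNA-binding protein, with 119 ± 21.7 CPM pre-tx and 33.5 ± 5.16 CPM post-tx (SD, n = 3) and a fold change of -2.08 (SE 0.31, adjusted p = 0.000121), Tefm, the elongation factor of mitochondrial transcription, with 28.1 ± 7.82 and 7.72 ± 1.30 CPM and a fold change of -2.12 (SE 0.39, adjusted p = 0.000727), and Hsd17b10, a subunit of mitochondrial RNase P, with a fold change of -1.08 (SE 0.23, adjusted p = 0.0018). In WT CD8 cells over time 2 of the 32 (6.25%) were called higher and 1 (3.12%) lower, where 13.2% and 10.4% of all genes were, with a median of -0.19. Of 10 regulators 3 (30%) were called higher and 1 (10%) lower over time in Cat-Tg CD4 cells, where 16.2% and 28.9% of all genes were. Myc had 27.5 ± 1.68 CPM pre-tx and 117 ± 73.4 CPM post-tx, a fold change of 1.82 (SE 0.37, adjusted p = 0.00149). Ppargc1a (PGC-1α, a coactivator of mitochondrial genes) was called lower on low levels, 1.23 ± 0.87 and 0.15 ± 0.20 CPM (adjusted p = 0.0184). Other lists had more genes called higher than lower in this comparison, where 16.2% of all genes were called higher and 28.9% lower. Of 13 citrate cycle genes 6 (46.2%) were higher and 1 (7.69%) lower. In WT CD4 cells over time, 6 (46.2%) of them were higher too, where 14.7% of all genes were. Of 7 adenine nucleotide and phosphate carriers and porins 4 (57.1%) were higher and 0 lower in the Cat-Tg CD4 cells. Of 18 genes of electron carriers and ubiquinone synthesis 2 (11.1%) were higher and 1 (5.56%) lower, both below the shares of all genes.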

How the data were processed

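RNA from sorted cells was amplified with SMART-Seq HT and made into unstranded libraries with Nextera XT. The authors deposited, for each library, a kallisto 0.46.2 table of estimated counts and TPM over 117497 transcripts. The submitters' processing notes name mm9, and the release of the transcript index is not given in the sources used here. Transcripts were matched to GENCODE M21 (GRCm38), the source of symbols and coordinates. Those matched, 116374, held 99.57% to 99.75% of the counts of a library, and the rest were left out. Estimated counts were summed per gene and rounded to whole numbers. Genes with CPM above 1 in at least 3 of the libraries of a fit were kept and scaled by TMM.

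Tests used edgeR 4.0.16 (robust quasi-likelihood) in R 4.3.3, with a fit of 12 libraries per cell type for genotype, time and their interaction, and 1 fit of all 24 libraries for cell types. The script was tested on simulated data. As alternatives, DESeq2 1.42.0 and voom in limma 3.58.1 were run, with other scalings and filters, and a correction of each library for transcript length and GC content (mgcv 1.9.3). Adding copies of mitochondrial genes, total counts without TMM factors and leaving out the WT pre-tx libraries were chosen after seeing the data. Libraries of a group were taken as separate mice as the methods state, 3 per group. The members, the gene lists and the tests were chosen with earlier results of these data known. 1 B cell marker of the list is not reported here.

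Genes named are all mitochondrial members, complex II, the isoform sets, the most abundant nuclear member per complex, and, per comparison and complex, the called genes with the highest and lowest fold change and no overlap, with at most 6 genes per interaction and 3 per pathway list. Other genes named beside these were chosen after their values were seen. In no comparison did all 3 same-numbered pairs of libraries have correlated deviations above 0.1. This cannot exclude that the replicate numbers pair the libraries, since which libraries share a mouse is not given.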

Additional observations from a re-analysis of the deposited data

Results flagged for a closer look

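The change over time differed between Cat-Tg and WT cells by the interaction term of edgeR's quasi-likelihood test (Benjamini-Hochberg adjusted p). In CD8 cells 45 of 94 tested members were called, 44 lower and 1 higher, where 4.78% of all genes were called lower and 5.92% higher. Those with the smallest adjusted p were Ndufb11 at -3.87 (log2, Cat-Tg change minus WT change, SE 0.46, adjusted p = 0.00027), Ndufb4 at -4.65, Cox4i1 at -3.55, Cox6c at -3.77, Atp5l at -3.44 and Sdhb at -3.08. For Ndufb11 the change over time was 3.93 in WT cells and the Cat-Tg libraries overlapped between the times. In CD4 cells 39 of 95 members were called, 37 lower and 2 higher, where 14.1% of all genes were called lower and 7.25% higher. Those with the smallest adjusted p were Ndufa5 at -3.02 (SE 0.43, adjusted p = 0.000301), Ndufa4 at -2.26, Uqcrb at -2.79, Cox7b at -2.42, Ndufs4 at -2.68 and the mitochondrial mt-Cytb at -2.86. In these 6 CD4 genes the Cat-Tg change was below 0 and the WT change above 0. Both counts include any calls of scarce isoforms that passed the filter only through the group in which they were high. Such calls are no evidence of a difference. Both contrasts use the WT pre-tx libraries, whose B cell markers summed to 13342 to 20498 CPM and whose Cd4 and Cd8 levels did not match their labels. What part that had in these differences was not tested. Without Cat-Tg pre-tx replicate 3, Cat-Tg post-tx replicate 1 or Cat-Tg post-tx replicate 2 the CD8 count was 27, 28 and 29, and without Cat-Tg pre-tx replicate 1 or WT pre-tx replicate 1 the CD4 count was 25 and 21.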

How the results depend on the processing

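Of 5850 values recomputed under other settings, 4836 kept their direction and side of the threshold (counts within 1.5 times). The direction was kept but the call lost for 645, and 351 moved. Another 18 of these values, all fold changes of single genes under the length and GC correction, turned sign. The 5850 values do not hold every member in every comparison, and other members turned sign too. For time in CD8 Cat-Tg all 13 mitochondrial members were below 0 and their corrected median was 0.74, while only mt-Nd5 is among the 18. Medians over sets of members are not among these 18, and some crossed 0 under other settings too. The nuclear median for time in CD4 Cat-Tg went from -0.15 to 0.09 with DESeq2 size factors. On total counts the mitochondrial median for time in CD8 WT went from 0.89 to -0.0046. The cause was not tested unless the setting itself shows it. Leaving out 1 library gave, for Cat-Tg against WT, 12 to 30 calls in CD8 cells before transplant and 0 to 16 after it (in place of 37 and 5), and 32 to 40 and 0 to 1 in CD4 cells (in place of 44 and 0). For time it gave 3 to 8 in CD8 Cat-Tg, 68 to 75 in CD8 WT, 39 to 48 in CD4 Cat-Tg and 9 to 19 in CD4 WT cells (in place of 13, 76, 49 and 24). For CD8 against CD4 it gave 0 to 0 (Cat-Tg pre-tx), 1 to 19 (Cat-Tg post-tx, in place of 18), 0 to 0 (WT pre-tx) and 41 to 65 (WT post-tx, in place of 67), for genotype by time 27 to 52 (CD8, in place of 45) and 21 to 40 (CD4, in place of 39), and for genotype by cell type 0 to 9 in place of 0, with 9 without CD8 WT post-tx replicate 2. The 1 call of CD4 post-tx cells came without WT replicate 3.

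With the length and GC correction 24 members were called for genotype in CD8 pre-tx, 9 in CD8 post-tx and 13 in CD4 post-tx, 28 for time in CD8 Cat-Tg and 47 in CD4 WT, 2 for CD8 against CD4 in WT pre-tx and 1 for genotype by cell type. The 18 recomputed values that turned under it were, for time in CD4 Cat-Tg, Cox7b 0.077, mt-Atp6 1.16, mt-Atp8 3.54, mt-Co2 0.30, mt-Cytb 0.086, mt-Nd1 0.41, mt-Nd2 1.14, mt-Nd3 2.72, mt-Nd4 1.10, mt-Nd4l 1.29, mt-Nd5 0.52 and mt-Nd6 2.73, for time in CD8 Cat-Tg mt-Nd5 0.052, for time in CD8 WT mt-Atp6 -0.048, for CD8 against CD4 in WT post-tx mt-Atp6 -0.13, for genotype by time in CD8 mt-Atp6 1.51 and mt-Nd3 2.44, and in CD4 mt-Atp6 0.21. Members that were not recomputed one by one are not in this list.

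On total counts without TMM factors there were 13 calls for genotype in CD8 pre-tx and 2 in CD8 post-tx, 49 for time in CD8 WT, 4 and 34 for CD8 against CD4 in Cat-Tg and WT post-tx and 25 for genotype by time in CD8. DESeq2 called 20 for genotype in CD8 post-tx, 2 in CD4 post-tx (limma-voom also 2), 25 for time in CD8 Cat-Tg, 1 and 6 for CD8 against CD4 in Cat-Tg and WT pre-tx and 17 for genotype by cell type. Its size factors in edgeR gave 8 for time in CD8 Cat-Tg and 6 for genotype by cell type, where library sizes without mitochondrial genes gave 6 (nuclear members only) and added copies 5. All 24 libraries in 1 fit gave 19 for genotype in CD8 post-tx, 27, 31 and 12 for time in CD8 Cat-Tg, CD4 Cat-Tg and CD4 WT and 13 for genotype by time in CD4. Without a filter 7 were called for CD8 against CD4 in Cat-Tg post-tx and 25 for genotype by time in CD4. A fold change of at least 1 gave 14 for time in CD4 WT, the 6 libraries alone 27 for CD8 against CD4 in WT post-tx, and fits without WT pre-tx libraries 0 for genotype in CD8 post-tx, 8 for time in CD8 Cat-Tg and 10 for CD8 against CD4 in Cat-Tg post-tx.

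With the replicate number as a block (replicate block) 0 members were called for genotype in CD8 post-tx. For CD8 against CD4 the block was genotype, time and replicate number together, which pairs same-numbered libraries. It gave 4 calls in Cat-Tg post-tx and 41 in WT post-tx cells. The other counts under the block stayed within 1.5 times. With 3 libraries a group, members on few counts and changes near 1 on the log2 scale were at the limit of what could be called.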
